A study of Mus musculus with 29 samples.

Results

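The effect of the 5xFAD transgenes was examined in microglia whose eIF2α cannot be phosphorylated, by setting the 3 5xFAD Eif2A libraries of the raw count table against the 4 Eif2A libraries. These 7 libraries were chosen by genotype and by the absence of drug from the sample names and labels, and they are 7 of the 29 libraries of the series. Each library holds polyA RNA that was pulled down with tagged ribosomes (translating ribosome affinity purification, TRAP) from mouse cortex. The series asks how the integrated stress response shapes microglia.

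All mice of both groups were 6 months old and carried Cx3cr1CreErt2/+, which drives a tamoxifen-inducible Cre, and the tag Eef1a1LSL.eGFPL10a/+, a GFP-marked ribosomal protein that Cre switches on. Both groups also carried Eif2s1A/A with the transgene Tg(Eif2s1). The mutant alleles encode an eIF2α that cannot be phosphorylated, and the series description marks the added normal copy as floxed, so that Cre removes it. The 5xFAD Eif2A mice carried 5xFAD in addition, a set of mutant human transgenes under the Thy1 promoter that give amyloid plaques. Every mouse received 6 doses of 100 mg/kg tamoxifen at 4 to 6 weeks of age, none of these 7 received VEGF or ASV, and all 7 libraries are labelled batch 1. For both Eif2A groups the tag stands in the sample labels but is missing from the genotypes in the series' design text. Cre under Cx3cr1 is also active in other Cx3cr1-positive myeloid cells such as border macrophages. The labels do not say whether each library came from 1 animal or from pooled tissue, so p-values measure the spread between libraries.

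Phosphorylation of eIF2α is the shared step of the integrated stress response: several kinases act on it, general translation falls, and a few transcripts, Atf4 among them, are translated more. ATF4 then raises genes of amino acid synthesis and transport. Microglia, the resident macrophages of the brain, take up a known programme beside amyloid plaques, in which genes of lysosomes, lipid handling and secreted signals rise. Part of that programme depends on the lipid receptor TREM2.

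Library totals were 7.059 to 7.629 M counts in 5xFAD Eif2A and 4.035 to 21.367 M counts in Eif2A. Microglial genes were abundant in both groups. The colony-stimulating factor receptor gene Csf1r had 2270 to 2379 CPM (counts divided by the TMM-scaled library size, the unit used for all levels here) in 5xFAD Eif2A and 1678 to 2055 CPM in Eif2A. The 13 neuron markers in the table took 0.0823% to 0.105% of counts in 5xFAD Eif2A and 0.0997% to 0.126% in Eif2A. Shares were smaller still for astrocytes (0.0316% to 0.0401% and 0.0436% to 0.0715%), oligodendrocytes (0.0629% to 0.0755% and 0.0509% to 0.0752%) and border macrophages (0.015% to 0.0289% and 0.0173% to 0.0332%). The neutrophil markers S100a8 and S100a9 were below 1 CPM in all 7 libraries. Of the 9 marker lists, 1 member passed the test, where 3.1% of all genes did. It was the endothelial gene Flt1 with a log2 fold change of 2.64 ± 0.68 (SE), a call lost without 5xFAD Eif2A replicate 1 or Eif2A replicate 2, 3 or 4 (highest adjusted p = 0.377). Of the 11 endothelial markers tested 7 had positive fold changes, and Pecam1 stood at -1.17 ± 0.57 without passing. Y-linked counts went against the labelled sex in 2 libraries, with 5 such counts in Eif2A replicate 3, labelled male, and 1509 in Eif2A replicate 4, labelled female. In tissue RNA of this kind, fewer cells of a type and less RNA per cell cannot be told apart.

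Of 16074 genes tested with edgeR's quasi-likelihood test, 499 (3.1%) differed at an adjusted p under 0.05, 334 of them (2.08%) higher in 5xFAD Eif2A and 165 (1.03%) lower. The 334 higher genes together took 11.8%, 10.8% and 10.8% of counts in the 3 5xFAD Eif2A libraries, against 3.62%, 3.47%, 4.14% and 4.04% in the 4 Eif2A libraries. The 165 lower genes took 0.174%, 0.198% and 0.228% in 5xFAD Eif2A, against 0.487%, 0.647%, 0.627% and 0.551% in Eif2A. Higher genes made up 66.9% of the calls, against 56.8% with RLE factors, 52.5% with upper-quartile factors and 44.4% with DESeq2, which changes the test as well as the scaling. The first principal component, with 34.2% of the variance, placed the 5xFAD Eif2A libraries at -66.1, -52 and -46.0 and the Eif2A libraries at 20.1, 65.8, 44.8 and 33.3. In 1848 genes (11.5%) all 5xFAD Eif2A libraries lay above all Eif2A libraries, and in 1549 (9.64%) below. Leaving out 5xFAD Eif2A replicate 1 gave 222 calls, replicate 2 gave 233 and replicate 3 gave 315. Leaving out Eif2A replicate 2 gave 310 and replicate 4 gave 319. The number was 202 without both Eif2A libraries that went against their labelled sex. Without the iPKR groups, which share in the estimate of the spread, it was 2090, and with only these 7 libraries it was 1664 of 12854 genes (12.9%), of which 462 were among the 499.

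The genes that the mouse lines alter were examined first. Eif2s1 itself, which encodes eIF2α, had 209.7, 206.6 and 200.4 CPM in 5xFAD Eif2A and 159.4, 136, 136.4 and 147 CPM in Eif2A. The groups did not overlap, but the log2 fold change of 0.55 ± 0.25 had an adjusted p of 0.29, with 0.00759 when only these 7 libraries were fitted. Counts per gene do not separate the mutant alleles from the floxed copy, so they do not check the genotype. Thy1, whose promoter drives the 5xFAD transgenes, had 38.1, 20.9 and 38.9 CPM in 5xFAD Eif2A and 7.38, 5.24, 11.8 and 11.6 CPM in Eif2A (log2 fold change 1.87 ± 0.56, adjusted p = 0.064). App stood at 229.3 to 301.1 CPM in 5xFAD Eif2A, above its 129.7 to 168.2 CPM in Eif2A, without passing the test (0.87 ± 0.55). Cx3cr1 (0.31 ± 0.74) overlapped between the groups. None of the 7 genes of this list passed, where 3.1% of all genes did.

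Genes known to rise at amyloid plaques were the largest group of changes. Of the 28 tested, 22 were higher in 5xFAD Eif2A (78.6%, against 2.08% of all genes) and none lower. The median log2 fold change was 2.93, against -0.06 over all genes tested. Cst7, an inhibitor of lysosomal cysteine proteases, had 3610, 3450 and 3975 CPM in 5xFAD Eif2A and 39.1, 22.6, 16.6 and 33.4 CPM in Eif2A. Every 5xFAD Eif2A library was far above every Eif2A library, with a fold change of 149 (log2 fold change 7.22 ± 0.66, adjusted p = 2.998e-07). The receptor tyrosine kinase gene Axl, whose product takes part in the uptake of dying cells, had 437.3, 570.4 and 821.8 CPM in 5xFAD Eif2A and 13.5, 17.9, 34.5 and 41.5 CPM in Eif2A (log2 fold change 4.45 ± 0.54). Spp1, the gene of the secreted protein osteopontin, reached 403.9, 174.9 and 196.1 CPM in 5xFAD Eif2A, against 1.80, 8.0, 13.7 and 3.15 CPM in Eif2A. The groups of both genes were wide apart (5.13 ± 0.67 for Spp1). The pyrophosphate exporter gene Ank rose by 2.89 ± 0.28 and the phospholipid-binding annexin gene Anxa5 by 2.35 ± 0.27. Lgals3bp, which encodes a secreted glycoprotein that binds galectins, rose by 2.98 ± 0.34, and the integrin gene Itgax, a usual marker of plaque-associated microglia, by 3.91 ± 0.72. The pattern-recognition receptor gene Clec7a, outside the naming rule and chosen after its values were seen, had 435.1, 503.4 and 164.2 CPM in 5xFAD Eif2A and 18.5 to 40.9 CPM in Eif2A. Among members that did not pass was the lysozyme gene Lyz2 (1.86 ± 0.58, adjusted p = 0.082). The largest fitted value on the list, 8.11 for Dkk2, depends on the prior count, since no Eif2A library had a read of it. Beyond the list, Baiap2l2, an actin-linked adaptor, was at 204.4, 137.9 and 116.1 CPM in 5xFAD Eif2A and 0.313 to 3.601 CPM in Eif2A.

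**Figure D1:**
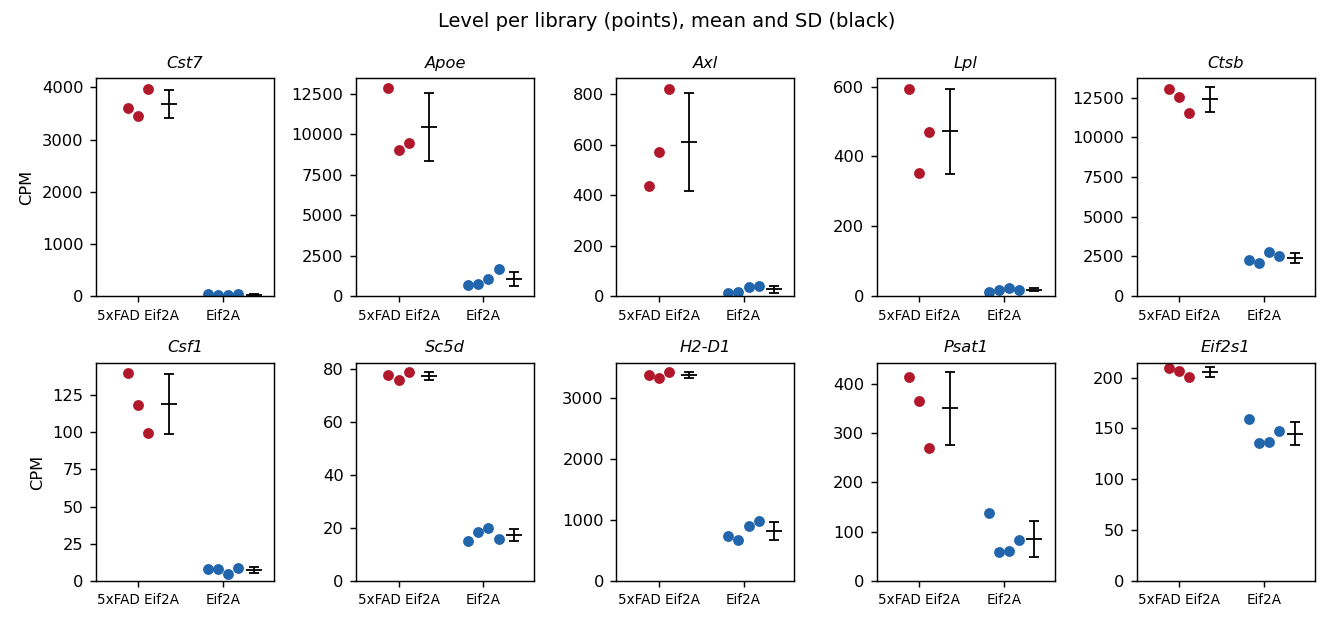
Levels of 10 genes in CPM (vertical axes, each from 0) in the 3 5xFAD Eif2A libraries (red) and the 4 Eif2A libraries (blue), with the mean and SD in black. The groups did not overlap for any of the 10, and the gap ran from a fold change of 149 for Cst7 to 1.46 for Eif2s1, which did not pass the test.

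For microglial genes of the resting state no change was called. None of the 16 homeostatic genes tested passed in either direction, against 3.1% of all genes, with a median of 0.25. Of the 19 genes listed, P2ry12, P2ry13 and Gpr34 were absent from the deposited counts, so their levels could not be examined. When only these 7 libraries were fitted 3 were higher and 3 lower, where 12.9% of all genes were called. The transcription factor gene Sall1, which maintains microglial identity, had 457.7, 451.3 and 406.5 CPM in 5xFAD Eif2A and 728.9, 595.6, 584.5 and 584.6 CPM in Eif2A (log2 fold change -0.50 ± 0.46, adjusted p = 0.702). Tmem119, a marker of resident microglia, had 1572 to 2062 CPM in 5xFAD Eif2A and 1988 to 2917 CPM in Eif2A, and overlapped. The homeostatic list took 7.02%, 6.36% and 6.85% of counts in 5xFAD Eif2A and 7.6%, 7.45%, 8.18% and 8.95% in Eif2A.

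The lipid receptor gene Trem2 sat at the threshold in the fit of all 29 libraries. It had 4139, 3338 and 3601 CPM in 5xFAD Eif2A and 972.9, 960.5, 1258 and 1269 CPM in Eif2A, without overlap (log2 fold change 1.74 ± 0.50, adjusted p = 0.0498). The call was lost without any 1 of the 7 libraries (highest adjusted p = 0.186). With only these 7 libraries fitted the adjusted p was 1.985e-05. Tyrobp, which encodes the adaptor that carries the TREM2 signal, had 9246 to 10120 CPM in 5xFAD Eif2A and 4250 to 5861 CPM in Eif2A. It did not pass (0.97 ± 0.67), with an adjusted p of 0.000147 when only these 7 libraries were fitted. Sirpa, an inhibitory receptor for the CD47 signal, was the other member called, at 0.83 ± 0.22, lost without 5xFAD Eif2A replicate 1, 2 or 3 or Eif2A replicate 1, 2 or 4 (highest adjusted p = 0.133). The list of 19 genes of the receptor, its signalling and Alzheimer risk had 10.5% called, against 3.1% of all genes. Its median was -0.03, with Bin1 at -0.41 ± 0.20 and not past the test. With only these 7 libraries fitted 3 of the 19 were higher and 2 lower, where 12.9% of all genes were called.

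Lipid handling genes rose in 10 of 28 tested (35.7%, against 2.08% of all genes), with none lower and a median of 0.77. Apoe, the main lipid carrier of the brain, had 12830, 9035 and 9441 CPM in 5xFAD Eif2A and 716.9, 731.3, 1069 and 1699 CPM in Eif2A. All 5xFAD Eif2A libraries were above all Eif2A libraries, with a log2 fold change of 3.39 ± 0.38 (adjusted p = 3.06e-06). The lipoprotein lipase gene Lpl had 594.1, 351.2 and 468.7 CPM in 5xFAD Eif2A and 12.96, 17.9, 24.3 and 18.6 CPM in Eif2A (4.67 ± 0.53). Ch25h, the cholesterol 25-hydroxylase gene, had 129.3, 110.9 and 128.7 CPM in 5xFAD Eif2A and 0.72, 2.76, 1.51 and 0.562 CPM in Eif2A (6.58 ± 1.02). For Ch25h the Eif2A side rests on few reads, so the fold is imprecise while the separation of the groups is complete. Fabp5, a fatty acid carrier, rose by 3.12 ± 0.39, and Soat1, which esterifies cholesterol for storage, by 1.70 ± 0.29. Fabp3, a related carrier, rose by 1.70 ± 0.31. Npc2, which moves cholesterol out of lysosomes, was at 1.36 ± 0.42 without passing (adjusted p = 0.074).

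Cholesterol synthesis genes were higher in 6 of 21 (28.6%, against 2.08% of all genes), with a median of 0.89 and all 21 fold changes positive. Sc5d, a sterol desaturase of the late pathway, had 77.9, 76.0 and 79.0 CPM in 5xFAD Eif2A and 15.1, 18.5, 20.2 and 15.7 CPM in Eif2A. The libraries of each group lay close together, and the log2 fold change was 2.18 ± 0.34 (adjusted p = 0.000187). Msmo1, a sterol oxidase gene, rose by 1.49 ± 0.26. Srebf2, the transcription factor that governs the pathway, was at 0.81 ± 0.18, a call lost without 5xFAD Eif2A replicate 1 or 2 (highest adjusted p = 0.101). Leaving out 5xFAD Eif2A replicate 1 left 3 calls and replicate 2 left 2. Of the 18 fatty acid synthesis genes tested, with a median of 0.28, 3 were called higher (16.7%, against 2.08% of all genes). These were Acaca, Scd2 and Srebf1, and their calls were lost in 6 or 7 of the 7 fits without 1 library (highest adjusted p = 0.476).

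Lysosomal genes rose widely. Among hydrolases, membrane proteins and cofactors, 20 of 32 were higher (62.5%, against 2.08% of all genes) and none lower, with a median of 1.17 and 31 fold changes positive. Gla, the gene of alpha-galactosidase A, had 29.9, 40.9 and 34.1 CPM in 5xFAD Eif2A and 1.80, 4.14, 3.602 and 5.85 CPM in Eif2A, the largest change of the list (log2 fold change 3.22 ± 0.58). The progranulin gene Grn had 2263, 2342 and 2572 CPM in 5xFAD Eif2A and 706.6, 702.6, 988.7 and 824.4 CPM in Eif2A, a fold change of 3.03 without overlap. Gusb, the beta-glucuronidase gene, rose by 1.98 ± 0.34, and Naglu, which degrades heparan sulfate, by 2.06 ± 0.33. The lysosomal membrane protein gene Lamp2 rose by 1.32 ± 0.24. Cathepsins and related proteases were called higher in 6 of 17 (35.3%, against 2.08% of all genes), with a median of 1.13. The 6 kept their number in each fit that left out 1 library. Ctsb, a cysteine protease and the most abundant of the 6, had 13060, 12570 and 11560 CPM in 5xFAD Eif2A and 2262, 2070, 2791 and 2533 CPM in Eif2A (2.41 ± 0.27, adjusted p = 3.06e-06). The aspartic protease gene Ctsd rose by 2.02 ± 0.32, Ctsz by 2.19 ± 0.36, Ctsl by 1.79 ± 0.26 and Ctsa, which also protects other hydrolases, by 1.97 ± 0.22. The tripeptidyl peptidase gene Tpp1 rose by 1.28 ± 0.19. Of the proton pump that acidifies lysosomes, 2 of 16 subunit genes passed (12.5%, against 3.1% of all genes), Atp6ap1 (1.45 ± 0.34) and Atp6v0d2 (4.42 ± 1.18). Leaving out any of several libraries cost the second call, and both were lost without 5xFAD Eif2A replicate 2, where the count was 0, and the list's 16 fold changes were all positive with a median of 0.50. With only these 7 libraries fitted 11 of the 16 were called higher, against 12.9% of all genes.

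TCACGTGA, the core of the motif that TFEB and its relatives bind before lysosomal genes, was searched in the 250 bases before each start on both strands, which read alike for this palindrome. It was found in 3 of 27 RefSeq promoters (11.1%) of 25 lysosomal genes and in 2 of 14 promoters (14.3%) of 12 cathepsin genes. The share was 1.29% for promoters of genes tested and 0.785% for all 32851 promoters. The 3 stretches below, from RefSeq on GRCm38.p6 and read 5′ to 3′ on the gene's strand, are shown because they belong to genes that rose, and capitals mark the motif.
Ctsa, chr2:164833725-164833772, plus strand: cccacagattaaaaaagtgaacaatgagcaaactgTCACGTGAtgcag
Ctsd, chr7:142387884-142387961, minus strand: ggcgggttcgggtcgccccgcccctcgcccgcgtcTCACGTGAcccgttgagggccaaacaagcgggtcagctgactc
Gla, chrX:134601158-134601255, minus strand: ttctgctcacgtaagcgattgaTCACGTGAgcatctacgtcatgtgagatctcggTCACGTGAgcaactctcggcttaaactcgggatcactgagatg
The Gla promoter held the motif at 2 places and the others at 1. Matches of these letters do not show binding, and the motif was also present before genes that did not pass, such as Mcoln1 and Cln3. Among the promoters of all genes called higher it stood in 2.5%, and among those of all genes tested in 1.29%.

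Secreted signals and their receptors changed in a few members with large folds. Of 27 growth factor genes 7 were higher and 2 lower (33.3%, against 3.1% of all genes called either way). Igf1, Csf1, Spp1 and Axl among the 7 are also members of the plaque list, and Flt1 of the endothelial marker list. Csf1, the ligand of the receptor that microglia need to survive, had 139.9, 118.6 and 99.6 CPM in 5xFAD Eif2A and 8.10, 7.72, 4.70 and 8.66 CPM in Eif2A (log2 fold change 4.08 ± 0.54). Igf1, a growth factor that microglia release, had 250.6, 199.4 and 133.7 CPM in 5xFAD Eif2A and 6.30, 4.97, 12.5 and 10.6 CPM in Eif2A (4.47 ± 0.63). Csf2ra, a receptor for GM-CSF, rose by 2.18 ± 0.41 and the coreceptor gene Nrp1 by 1.78 ± 0.25. The 2 lower members, outside the naming rule, were the vascular growth factor gene Vegfa (-1.63 ± 0.41), whose groups overlapped, and the matrix protein gene Ctgf (-2.11 ± 0.45). Of 15 chemokine genes 3 were higher (20%, against 2.08% of all genes). Ccl3, an attractant of leukocytes, had 492.9, 510.6 and 453.1 CPM in 5xFAD Eif2A and 25.2, 35.9, 30.1 and 17.4 CPM in Eif2A (4.14 ± 0.57), and the related Ccl4 rose by 3.37 ± 0.51. The third, Cxcr4, had at most 0.679 CPM in Eif2A and lost its call in 5 of the 7 fits without 1 library (highest adjusted p = 0.077). Among integrins and matrix genes 5 of 28 were higher (17.9%, against 2.08% of all genes), and 3 were called without 5xFAD Eif2A replicate 2 or 3. The 5 include the urokinase receptor gene Plaur (3.35 ± 0.56) and the leukocyte integrin gene Itgb2 (1.53 ± 0.24). Itgax and Timp2, also among the 5, are members of the plaque list too. Of 21 inflammatory genes 1 passed (4.76%, against 3.1% of all genes). It was the lipopolysaccharide coreceptor gene Cd14 (1.08 ± 0.30), lost in 6 of the 7 fits without 1 library (highest adjusted p = 0.156).

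**Figure D2:**
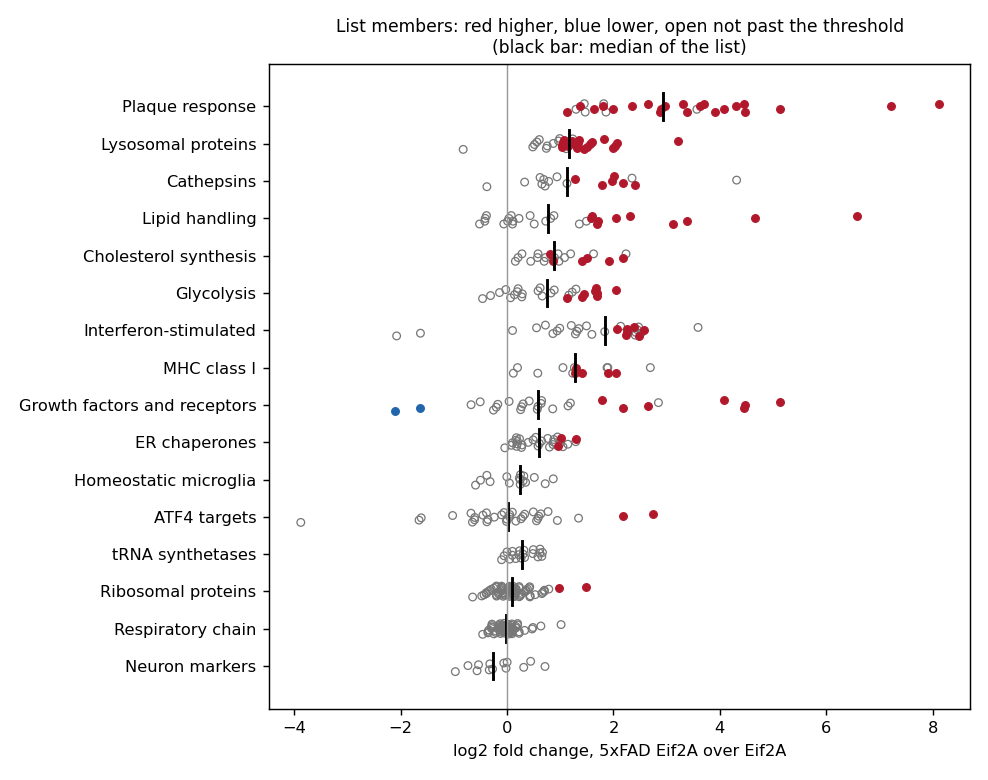
Log2 fold change of 5xFAD Eif2A over Eif2A (horizontal axis) for every tested member of 16 gene lists (rows), with red for members called higher, blue for members called lower, open circles for the rest and a black bar at the list's median. Medians ran from 2.93 for plaque response genes to -0.27 for neuron markers, and the homeostatic, tRNA synthetase, respiratory chain and neuron rows hold no filled point.

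Class I antigen presentation genes were higher in 5 of 14 (35.7%, against 2.08% of all genes), with a median of 1.28. H2-D1, a class I heavy chain, had 3376, 3335 and 3433 CPM in 5xFAD Eif2A and 735.6, 667.3, 894.9 and 980.5 CPM in Eif2A, a fold change of 4.13 with a narrow spread in 5xFAD Eif2A (adjusted p = 0.00425). The second classical heavy chain, H2-K1, rose by 1.89 ± 0.41, and Tapbp, which loads peptides onto class I molecules, by 1.27 ± 0.25. Class I heavy chain genes are near copies of each other, and how reads with several matches were counted is not given in the sources used here, so single genes of this family are uncertain. None of the 11 class II genes passed, against 3.1% of all genes, with a median of 0.81. With only these 7 libraries fitted 7 were called higher, in a fit that called 12.9% of its genes. The invariant chain gene Cd74 was at 258.1 to 399.2 CPM in 5xFAD Eif2A and 99.2 to 198.8 CPM in Eif2A (1.28 ± 0.54, adjusted p = 0.24).

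Interferon-stimulated genes were higher in 7 of 29 (24.1%, against 2.08% of all genes), with a median of 1.84 and 27 fold changes positive. In 23 of the 29 all 5xFAD Eif2A libraries lay above all Eif2A libraries, and in 1 below. Over all genes tested 11.5% lay above and 9.64% below. The number called fell whichever library was left out. The number was 0 without 5xFAD Eif2A replicate 1 or 3 or Eif2A replicate 3, 3 without 5xFAD Eif2A replicate 2, 2 without Eif2A replicate 1 or 4 and 1 without Eif2A replicate 2. With only these 7 libraries fitted it was 21 of 27, with 1 lower, where 12.9% of all genes were called. Oasl2, an antiviral gene, had 62.9, 85.8 and 144.7 CPM in 5xFAD Eif2A and 9.18, 23.5, 9.97 and 16.6 CPM in Eif2A (log2 fold change 2.57 ± 0.61, adjusted p = 0.014, at most 0.0654 without 1 library). Ifitm3, which blocks viral entry, had 220.3, 183.3 and 314.2 CPM in 5xFAD Eif2A and 38.7, 51.3, 37.3 and 60.4 CPM in Eif2A. For both genes the groups did not overlap and 5xFAD Eif2A replicate 3 was highest. The element GAAA, 2 bases of any kind and GAAA on either strand, the core bound by interferon-activated factors, stood in 50% of 24 RefSeq promoters of 21 of these genes and in 2.98% of all promoters, over the same 250 bases. It stood in 3.12% of the promoters of all genes called higher, 3.09% of those called lower and 2.62% of those tested. Matches of these letters do not show binding. The element was also present before genes that did not pass, such as Isg15, Bst2 and Trim30a, the last at -1.63 ± 0.80. Both stretches below, from RefSeq on GRCm38.p6 and read on the gene's strand, come from called members and show the element, in capitals, in each orientation.
Oas1a, chr5:120907526-120907580, minus strand: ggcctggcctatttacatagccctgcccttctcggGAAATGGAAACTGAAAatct
Ifit3, chr19:34583338-34583451, plus strand: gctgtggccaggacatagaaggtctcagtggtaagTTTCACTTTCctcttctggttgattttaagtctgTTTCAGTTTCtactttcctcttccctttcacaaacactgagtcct
In Oas1a both matches overlap in 1 run, whereas in Ifit3 they lie apart on the opposite strand. Ifit3b, whose stretch in this window has the same letters as that of Ifit3, did not pass, so reads may be split between these near copies.

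Genes of glucose use were higher in 8 of 26 (30.8%, against 2.08% of all genes), with none lower and a median of 0.74. Slc16a3, the exporter of lactate, had 95.7, 94.2 and 106.5 CPM in 5xFAD Eif2A and 19.8, 25.1, 22.6 and 27.0 CPM in Eif2A (log2 fold change 2.06 ± 0.40). Ldha, which makes lactate, rose by 1.45 ± 0.28, the isomerase gene Tpi1 by 1.41 ± 0.26 and the kinase gene Pgk1 by 1.66 ± 0.35. Leaving out 5xFAD Eif2A replicate 1 or 2 left 4 calls, and leaving out 5xFAD Eif2A replicate 3 or Eif2A replicate 1, 3 or 4 left 5. Of 54 nuclear genes of the respiratory chain none passed, against 3.1% of all genes, with a median of -0.03.

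Targets of ATF4 and CHOP, the output of the pathway that the mutant eIF2α cannot start, were examined as a list. Of 34 tested, 2 were higher and none lower (5.88%, against 3.1% of all genes called either way). The median was 0.02 and turned to -0.06 with RLE factors. With only these 7 libraries fitted 5 of 31 were higher and 1 lower, where 12.9% of all genes were called. Psat1, an enzyme of serine synthesis, had 415, 366.1 and 270.5 CPM in 5xFAD Eif2A and 137.4, 59.0, 60.4 and 83.4 CPM in Eif2A (log2 fold change 2.17 ± 0.33, adjusted p = 0.000187). Atf3, a stress-induced transcription factor, had 179.3, 110.3 and 105 CPM in 5xFAD Eif2A and 34.6, 13.8, 14.8 and 14.8 CPM in Eif2A (2.75 ± 0.62). Without 5xFAD Eif2A replicate 1, its highest library, Atf3 did not pass (adjusted p = 0.132), which left 1 call in the list. The amino acid transporter genes Slc7a1 (1.34 ± 0.51) and Slc3a2 (0.77 ± 0.29) were above in every 5xFAD Eif2A library without passing. Ddit4, which restrains mTOR, had 5.29, 22.5 and 22.5 CPM in 5xFAD Eif2A and 45.4, 61.5, 83.2 and 15.6 CPM in Eif2A, with overlap (-1.61 ± 0.63, adjusted p = 0.187). Atf4 mRNA itself, which falls outside the naming rule, was at -0.38 ± 0.29.

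None of 16 genes of the eIF2 circuit, 20 tRNA synthetase genes or 32 translation factor genes passed, where 3.1% of all genes did. Their medians were 0.28, 0.28 and 0.14. With only these 7 libraries fitted 3, 6 and 5 of them were higher and 1 translation factor gene lower, against 12.9% of all genes called. The kinase gene Eif2ak2, which encodes PKR and responds to interferon, had 44.7, 23.3 and 43.9 CPM in 5xFAD Eif2A and 19.1, 8.0, 8.51 and 14.6 CPM in Eif2A (log2 fold change 1.65 ± 0.79, adjusted p = 0.33). ER chaperone and translocation genes were higher in 3 of 31 (9.68%, against 2.08% of all genes), with a median of 0.61 and 30 fold changes positive. With only these 7 libraries fitted 17 were called, against 12.9% of all genes in that fit. The disulfide isomerase gene Pdia3, also among the called members of the class I list, had 915.8, 905.1 and 946.4 CPM in 5xFAD Eif2A and 402.1, 333.5, 422.7 and 418.5 CPM in Eif2A (1.29 ± 0.25). Ssr1, of the translocon, rose by 1.02 ± 0.21, and P4hb, another isomerase, by 0.96 ± 0.21, a call lost without 5xFAD Eif2A replicate 3 (adjusted p = 0.0532) and with sex taken from Y-linked counts (0.0518). Of 71 ribosomal protein genes 2 were higher (2.82%, against 2.08% of all genes), Rpsa (0.98 ± 0.24) and Rpl17 (1.49 ± 0.39). Neither was called without 5xFAD Eif2A replicate 1, 2 or 3 or Eif2A replicate 3.

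Prkca, the gene of protein kinase C alpha, had 20.6, 19.3 and 16.0 CPM in 5xFAD Eif2A and 92.9, 72.8, 77.8 and 61.2 CPM in Eif2A, without overlap (log2 fold change -2.02 ± 0.26, adjusted p = 1.998e-05). Plcxd3, a phospholipase-like gene, had 1.28, 1.58 and 2.33 CPM in 5xFAD Eif2A and 28.99, 28.96, 24.9 and 10.6 CPM in Eif2A (-3.74 ± 0.55). The synaptic scaffold gene Shank2 had 2.92, 6.49 and 5.49 CPM in 5xFAD Eif2A and 9.54, 26.5, 22.4 and 17.8 CPM in Eif2A (-2.01 ± 0.31). For Plcxd3 and Shank2 1 Eif2A library lay well below the rest of its group. The RNA-binding protein gene Khdrbs3 was more abundant, at 47.2, 42.6 and 55.7 CPM in 5xFAD Eif2A and 529.9, 416.5, 199.1 and 387.7 CPM in Eif2A (-2.90 ± 0.46). Dgkb, a diacylglycerol kinase (-2.46 ± 0.45), Nkain2, which binds the sodium pump (-2.33 ± 0.45), and Asic2, an acid-sensing channel (-1.46 ± 0.28), were also among the 15 lower genes of smallest p. So were the transcriptional regulators Nfib (-1.62 ± 0.30), Auts2 (-1.55 ± 0.29) and Ssbp3 (-1.09 ± 0.20), and the vesicle protein gene Syt7 (-1.56 ± 0.29). The cyclin gene Ccnd2 was at -1.52 ± 0.34 and did not pass when 5xFAD Eif2A replicate 3 was left out (adjusted p = 0.0627).

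**Figure D3:**
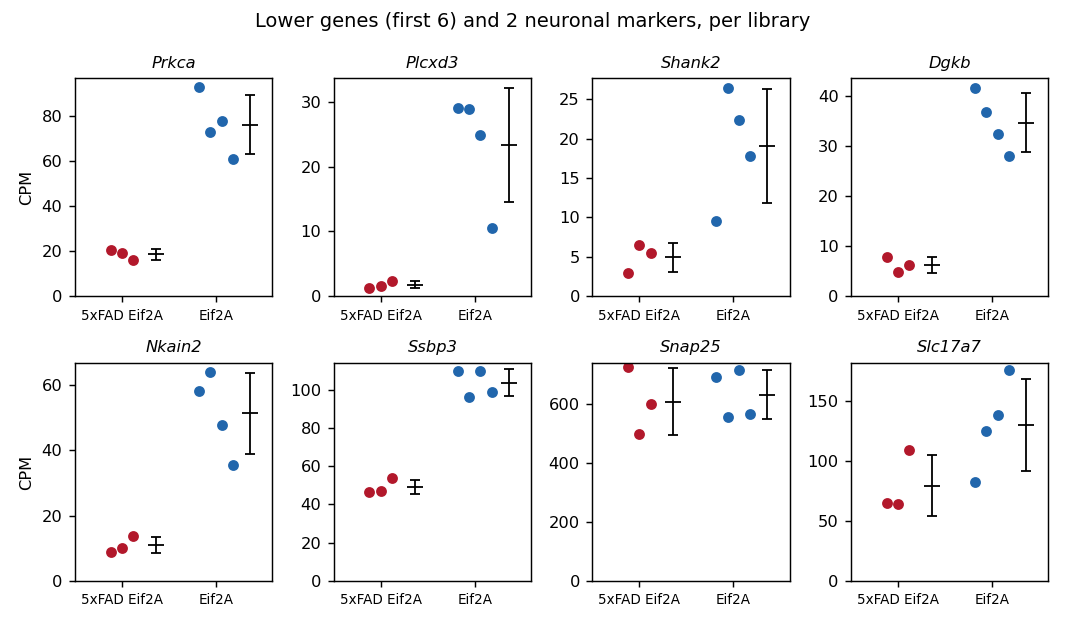
Levels in CPM (vertical axes, each from 0) of 6 genes called lower and of the neuronal markers Snap25 and Slc17a7 in the 3 5xFAD Eif2A libraries (red) and the 4 Eif2A libraries (blue), with the mean and SD in black. The 6 lower genes did not overlap between the groups, with Prkca at 16.0 to 20.6 CPM against 61.2 to 92.9 CPM, whereas both markers overlapped.

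The lower genes were more often long than the genes tested as a whole. Their median span in GENCODE M21 was 80 kb, and 44.2% of the 163 with a span exceeded 100 kb, against a median of 23 kb and 9.97% for the higher genes and 25.1 kb and 16.2% for all genes tested. Prkca (chr11:107933387-108343928) spans 410.5 kb, Dgkb (chr12:37817726-38634239) 816.5 kb and Nkain2 (chr10:31689310-32890462) 1201 kb in mm10. The median level of the lower genes was 6.24 CPM in 5xFAD Eif2A and 19.9 CPM in Eif2A, against 14.6 and 15 CPM for all genes tested. In the vehicle libraries of the iPKR mice, another genotype of the series whose mice received VEGF (1 µg/kg) for 4 weeks while TRAP mice received none, 90.3% of the lower genes had more than in TRAP libraries (median log2 difference 2.13), against 31.1% of the higher genes and 53.4% of all genes. Of the neuron marker list 0 of 13 members passed, against 3.1% of all genes, with a median of -0.27. Snap25, a synaptic vesicle fusion gene, had 727.6, 499.7 and 599.5 CPM in 5xFAD Eif2A and 690.6, 556.7, 716.6 and 565.7 CPM in Eif2A. The vesicular glutamate transporter gene Slc17a7 stood at -0.74 ± 0.29 with overlap (adjusted p = 0.19). Nuclear long noncoding RNAs had a median of -0.79 with 0 of 7 called, and Malat1 had 21.3, 43.7 and 123.8 CPM in 5xFAD Eif2A and 82.1, 139, 166.8 and 65.8 CPM in Eif2A. The part of other cells or of RNA not bound to tagged ribosomes in the lower genes was not tested.

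**Figure D4:**
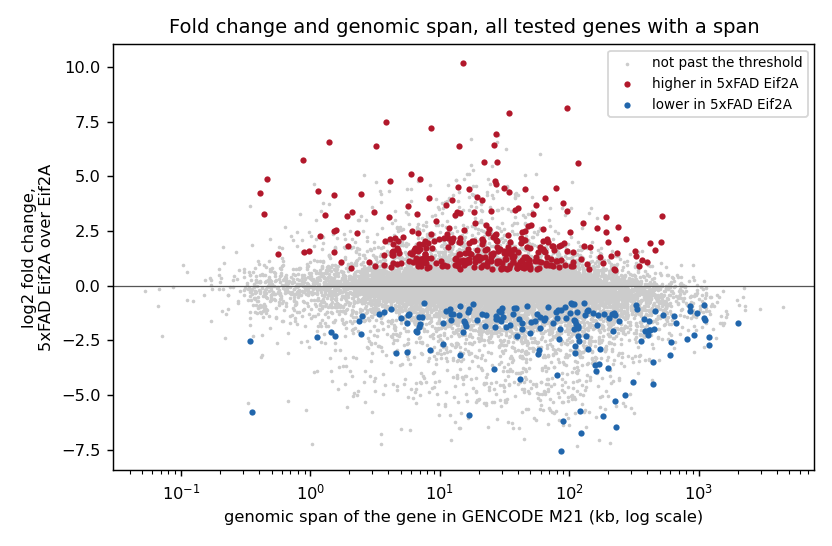
Genomic span in kb (horizontal axis, log scale) and log2 fold change of 5xFAD Eif2A over Eif2A (vertical axis) for every tested gene with a span in GENCODE M21. Genes called lower (blue) reach further to the right than genes called higher (red), with medians of 80 kb and 23 kb.

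The effect was then set beside that of 5xFAD in mice with ordinary Eif2s1 alleles, from 4 5xFAD TRAP and 5 TRAP libraries. Those 5xFAD mice had received VEGF (1 µg/kg) and ASV (5 mg/kg) for 4 weeks, unlike the TRAP mice and both Eif2A groups, and both groups include libraries of batch 2. So the role of the Eif2s1 alleles and that of the treatment cannot be told apart in this comparison. Of the 334 genes higher in 5xFAD Eif2A over Eif2A, 332 had a positive log2 fold change in 5xFAD TRAP over TRAP, against 45% of all genes tested. Of the 165 lower genes 152 were negative there, against 55% of all genes. The median of the higher genes was 1.58 on Eif2A and 0.89 on TRAP, and that of the lower genes -1.66 and -0.58, where selection on Eif2A favours the larger value there. Both effects were estimated in 1 model with a common spread.

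Tested gene by gene, the difference between the 5xFAD effects passed for 1 gene of 16074 (0.00622%) with edgeR, while DESeq2 called 83. With edgeR 686 had an unadjusted p under 0.05, which is fewer than the share of 0.05 that chance alone gives. The fitted difference, Eif2A minus TRAP, was 1.88 ± 0.72 for Cst7, 1.94 ± 0.66 for Axl and 1.37 ± 0.49 for Apoe on the log2 scale. None of these passed, each with an adjusted p of 1. Lpl differed by -0.41 ± 0.66, Psat1 by 0.04 ± 0.44 and Ctsb by 0.72 ± 0.36. A miss of the threshold does not show that the effects were equal, given these errors. Plcxd3 (-3.69 ± 0.69) and Dgkb (-3.15 ± 0.57) came nearest to the threshold, both with an adjusted p of 0.0556. On TRAP Dgkb had 32.6 CPM with 5xFAD and 24.6 CPM without it, where on Eif2A it had 6.24 CPM with 5xFAD and 34.6 CPM without it.

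The 1 gene past the threshold was Gm26561, a long intergenic noncoding RNA on chromosome 17 (chr17:70878078-71393284, plus strand, mm10). It had 613.5, 481.1 and 504.8 CPM in 5xFAD Eif2A and 80.1, 51.9, 51.3 and 55.3 CPM in Eif2A (log2 fold change 3.19 ± 0.36), and the difference between the effects was 3.08 ± 0.48 (adjusted p = 0.0104). Within batch 1 alone the difference was 3.19 ± 0.36 (adjusted p = 0.00031). It did not pass without 5xFAD Eif2A replicate 1 (0.0514), 5xFAD TRAP replicate 1 (0.0704) or 2 (0.0576), or TRAP replicate 5 (0.0579). In the 9 libraries of 5xFAD TRAP and TRAP the level followed the labelled batch, with 442.4 to 512 CPM in the 3 batch 2 libraries and 42.3 to 67.3 CPM in the 6 batch 1 libraries. All 3 5xFAD Eif2A libraries are labelled batch 1, yet replicates 2 and 3 lay within the range of those batch 2 libraries and replicate 1 above it. Over the 663 genes whose batch 2 libraries were all above batch 1 among those 9, mean log2 CPM was 5.52 to 5.57 in 5xFAD Eif2A and 5.36 to 5.50 in Eif2A, between the batches (5.79 to 5.80 in batch 2, 4.92 to 5.15 in batch 1). Over the 687 genes with the opposite order it was 5.54 to 5.67 in 5xFAD Eif2A and 5.75 to 5.91 in Eif2A, against 5.29 to 5.32 in batch 2 and 5.95 to 6.04 in batch 1. In 5xFAD Eif2A 22 of the 663 genes were called higher and 6 lower, and of the 687 genes 0 were called higher and 13 lower, beside 2.08% higher and 1.03% lower over all genes tested. The part of batch in the Gm26561 result was not tested.

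**Figure D5:**
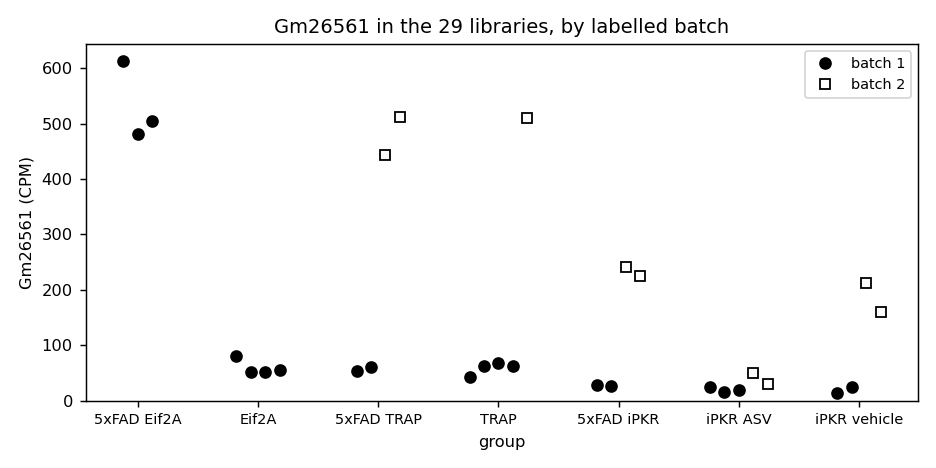
Level of Gm26561 in CPM (vertical axis, from 0) in each of the 29 libraries by group (horizontal axis), with filled circles for libraries labelled batch 1 and open squares for batch 2. The 3 5xFAD Eif2A libraries are labelled batch 1 and sit at 481.1 to 613.5 CPM, beside the batch 2 libraries of 5xFAD TRAP and TRAP, while the 4 Eif2A libraries sit at 51.3 to 80.1 CPM.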

How the data were processed

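The authors deposited raw counts per gene symbol for 22327 genes in 29 libraries. The tools named, per the submitters' processing notes, are featureCounts 2.0.3, HISAT2 2.2.1 and Trim Galore, with the build mm10. Which annotation was counted, whether by strand, and how multiply matching reads were treated are not given in the sources used here, so overlapping genes and near copies may share reads. Per the labels' protocols, libraries were made with a SMART-Seq mRNA kit. The deposited RPKM table was not used.

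The low-count filter was filterByExpr on the groups, at a minimum count of 10 and a total of 15, leaving 16074 genes. Counts were scaled with TMM factors. All 29 libraries were fitted in edgeR 4.0.16 (R 4.3.3) with group, batch and labelled sex, leaving 20 residual degrees of freedom, so the spread is shared by all 7 groups, the iPKR groups included. The quasi-likelihood F-test was robust and two-sided, with Benjamini-Hochberg adjustment over all genes and a threshold of 0.05. Fold changes are log2 values with SE. The SE is the absolute log2 fold change divided by the square root of the F statistic. It is thus derived from the test, and is a rough guide for genes near 0 in a group. Coordinates and spans come from GENCODE M21. The procedure was tested on simulated data.

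The 2 groups, the gene lists and the tests were chosen with earlier results of these data known. Named genes were the 15 called genes of smallest p in each direction (absolute log2 fold change at least 0.5, mean log2 CPM at least 1, no unnamed models or X or Y genes), up to 6 called and 3 other members of each list, all targeted genes and cell type markers, and genes called in the difference between effects. The labels do not say that equal replicate numbers mark a shared source, so they were not taken as pairs. No 2 libraries of a group were copies. Counts carry no molecular identifiers, and Poisson error is included in the model's spread. Alternatives were other scaling (RLE, upper quartile), filters, models, tools (limma-voom 3.58.1, DESeq2 1.42.0) and each library left out. After seeing the data, 2 more were chosen: sex from Y-linked counts, and a fit without both Eif2A libraries against their label.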

Additional observations from a re-analysis of the deposited data

Results flagged for a closer look

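Among the Eif2A libraries, 127 measures were examined for 1 library standing apart from the other 3, and 9 did, where chance gives about 1 in 20. Eif2A replicate 1 was highest for Sall1 (728.9 CPM, against 584.5 to 595.6 CPM in the others), Atf3 (34.57 CPM, against 13.79 to 14.84 CPM) and Gm26561 (80.13 CPM, against 51.26 to 55.31 CPM). Replicate 4 was highest for H2-Ab1 (50.81 CPM, against 23.72 to 28.09 CPM), Myo1e (34.4 CPM, against 16.34 to 17.93 CPM) and Syngr1 (614.6 CPM, against 504.7 to 508.3 CPM). Replicate 3 was highest for Cd14 (288.3 CPM, against 168.3 to 186.9 CPM) and for Cxcr4, which was near 0 (0.6786 CPM, against 0 to 0.1124 CPM). Replicate 2 was lowest for Itgb2 (177.4 CPM, against 227.2 to 233.4 CPM).

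Gm26561 was the gene whose 5xFAD effect differed between Eif2A and TRAP mice, by 3.08 on the log2 scale in the test of the difference itself. The level of this noncoding RNA also followed the labelled batch in the 5xFAD TRAP and TRAP libraries.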

How the results depend on the processing

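The number of genes past the threshold between 5xFAD Eif2A and Eif2A was 499, and it stayed within a factor of 1.5 with RLE or upper-quartile factors, other filters, without sex, within batch 1, with limma-voom and with sex from Y-linked counts. It was 2090 with the 4 groups without iPKR, 1664 with only these 2 groups, 1034 with DESeq2, 202 without the Eif2A libraries against their labelled sex, and 222 to 419 with 1 library left out. The fits with fewer groups estimate the spread without the iPKR libraries; why DESeq2 called more was not tested. With the replicate number as a block the number was 357 over all libraries and 1313 over these 2 groups, against 1664 without the block. Deviations from the group means correlated at 0.106, 0.04 and 0.069 between same-numbered libraries and at -0.089 to 0.03 between the others, so each library with a numbered partner correlated best with it, as a hint from the data and not from the design, since not every pair exceeded 0.1. For the difference between the 5xFAD effects, 1 gene passed; the number was 3 without sex, 2 within batch 1, 42 with the 4 groups without iPKR, 83 with DESeq2, 3 with sex from Y-linked counts, 0 without the Eif2A libraries against their labelled sex and 0 to 3 with 1 library left out. Of 108 named genes past the threshold, 70 kept their call in each of the 7 fits that left out 1 library, and no named gene reversed its sign as a call under any alternative run. Depth limits genes of few counts, and with 3 and 4 libraries small changes are not resolved.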
